A study of Mus musculus with 6 samples.

Results

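Glycolytic enzymes, the proteins that split glucose-derived sugar phosphate and carry it to pyruvate and lactate, were followed at the RNA level in LARP1 immunoprecipitates of mouse dorsal root ganglia (DRG), the ganglia beside the spinal cord that hold the cell bodies of sensory neurons. The 10 genes were chosen by Ensembl identifier from the 16976 identifiers of the deposited count table, and they are Aldoa, Tpi1, Gapdh, Pgk1, Pgam1, Eno1, Eno2, Pkm, Ldha and Ldhb. All 10 identifiers were in the table, and 9 had a count in at least 1 library. One group was wild-type DRG after sciatic nerve injury and the other wild-type DRG without injury, with 3 libraries each, labelled injured and uninjured. The labels used here give neither the time after injury, nor the age or sex of the mice, nor whether ganglia of several mice were pooled.

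In glycolysis, aldolase splits a hexose bisphosphate into a pair of triose phosphates, which triose phosphate isomerase interconverts. Glyceraldehyde-3-phosphate dehydrogenase, phosphoglycerate kinase, phosphoglycerate mutase, enolase and pyruvate kinase then convert the triose to pyruvate with a gain of ATP, and lactate dehydrogenase interconverts pyruvate and lactate. Neurons use the enolase made from Eno2, neuron-specific enolase, while Eno1 encodes the enolase of most other tissues. The precipitated protein, LARP1, binds RNA and is best known for its hold on the 5′ end of mRNAs that begin with a terminal oligopyrimidine (TOP) tract, a C followed by a run of pyrimidines, as mRNAs of ribosomal proteins do.

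Each value below is a level in the precipitate, in counts scaled to a library total of 1000000 (CPM). The 3 injured libraries held 211337 to 211879 counts and the 3 uninjured libraries 116186 to 116608, so that 1 count was worth 1.58 CPM over the summed injured libraries and 2.87 CPM over the summed uninjured libraries. Within a group the libraries differed by little more than counting noise: over genes with at least 15 counts, the variance between libraries was 1.12 times that of counting in the injured libraries, against 1.16 times in the uninjured libraries. For the 9 enzymes it was 1.49 times in the injured and 1.07 times in the uninjured libraries. Each group was therefore counted as 1 sample, its counts were summed, and no p-value is given for a gene. The intervals are exact 95% intervals that cover counting error only and treat each read as independent. Several reads can stem from 1 molecule by amplification, so the intervals may be too narrow even for that error. Injury and a difference in how each group was prepared or sequenced cannot be told apart. No input RNA or control precipitate was analysed here, so binding to LARP1 and abundance in the tissue cannot be told apart, nor can fewer cells of a type and less RNA per cell.

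Enzyme mRNAs together took a larger share of the injured precipitate. Their counts made up 0.377%, 0.384% and 0.381% of the injured libraries, against 0.260%, 0.263% and 0.292% of the uninjured libraries, with no overlap between the groups. Summed by group, 2414 of 634615 injured counts (0.380%, interval 0.365% to 0.396%) and 948 of 349027 uninjured counts (0.272%, 0.255% to 0.289%) came from the 10 genes. The ratio was 1.40 (1.30 to 1.51), and it was 1.51 (1.38 to 1.66) without Aldoa, which held the most counts. The members did not move alike: Pgk1 and Pgam1 were more than 2-fold higher, Tpi1, Ldha and Ldhb about 1.5-fold higher, Aldoa and Gapdh about 1.2-fold higher, and Eno2 close to its uninjured level. For Pkm, with few counts, the ratio was 0.489 with an interval that includes equal levels.

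**Figure D1:**
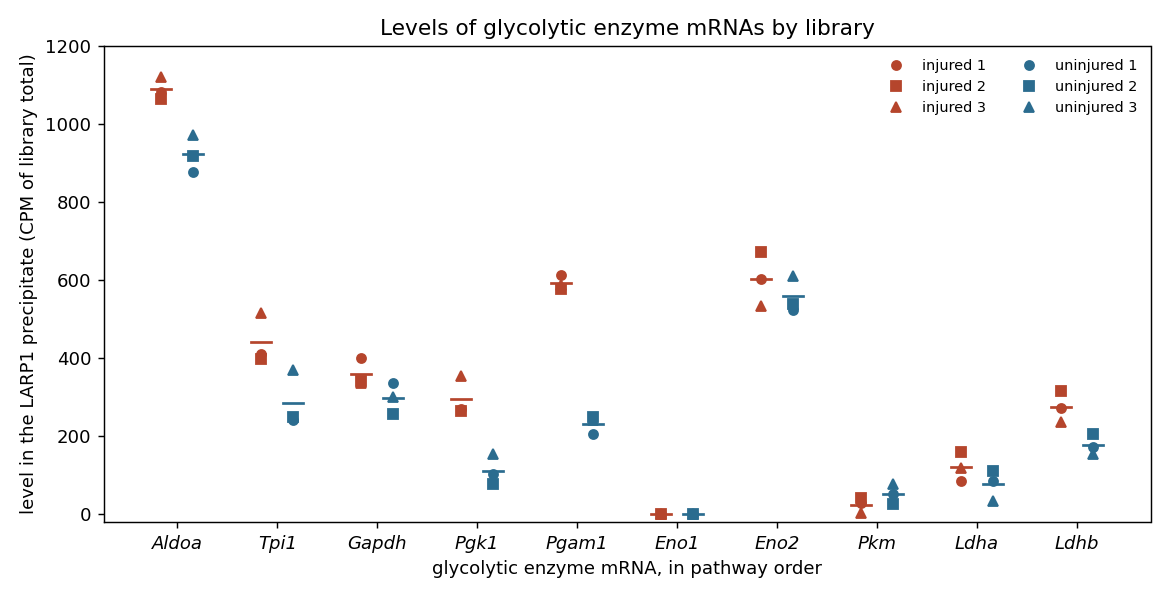
Level of each enzyme mRNA (vertical axis, CPM of the library total) in pathway order (horizontal axis); symbols are single libraries, injured in red to the left and uninjured in blue to the right, and short lines are the levels of the summed groups. Pgam1 lies between 577 and 614 CPM in the injured libraries, above the 206 to 249 CPM of the uninjured libraries, while the groups overlap for Eno2, Pkm and Ldha, and Eno1 is at 0 in all 6 libraries.

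At the 2 enzymes where the hexose is split and its parts interconverted, the differences were small to moderate. Aldoa (ENSMUSG00000030695), aldolase A, had 1081, 1065 and 1121 CPM in the injured libraries, against 878, 918 and 973 CPM in the uninjured libraries. Its groups did not overlap, and the ratio of 1.18 (interval 1.03 to 1.35) was the most tightly bounded of the enzymes, on 691 injured and 322 uninjured counts. Tpi1 (ENSMUSG00000023456), triose phosphate isomerase, had 411, 397 and 516 CPM in the injured libraries, against 241, 249 and 370 CPM in the uninjured libraries. Every injured library lay above every uninjured one, with library 3 the highest in each group. Its ratio was 1.54 (1.22 to 1.95).

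The payoff phase held the 2 highest ratios of the 9 enzymes with counts. Pgk1 (ENSMUSG00000062070), phosphoglycerate kinase 1, which makes the first ATP of this phase, had 269, 265 and 355 CPM in the injured libraries, against 103, 77.2 and 155 CPM in the uninjured libraries. The lowest injured library was well above the highest uninjured one. On 188 injured and 39 uninjured counts, the ratio was 2.65 (interval 1.87 to 3.85). Pgam1 (ENSMUSG00000011752), phosphoglycerate mutase 1, which moves the phosphate group of the Pgk1 product, had 614, 577 and 587 CPM in the injured libraries, against 206, 249 and 241 CPM in the uninjured libraries. The groups were far apart and each was narrow, and the ratio was 2.55 (2.00 to 3.29) on 376 injured and 81 uninjured counts. Among 3455 genes whose mean level over both groups reached 50 CPM, 90.9% had a lower ratio than Pgk1 and 90.2% a lower ratio than Pgam1.

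Gapdh (ENSMUSG00000057666), glyceraldehyde-3-phosphate dehydrogenase, which acts just before Pgk1 and is often used as a reference gene, had 401, 341 and 336 CPM in the injured libraries, against 336, 257 and 301 CPM in the uninjured libraries. The groups touched, with the lowest injured library at 335.9 and the highest uninjured library at 335.5 CPM. Its ratio of 1.21 had an interval of 0.952 to 1.54, which includes equal levels. Eno2 (ENSMUSG00000004267), neuron-specific enolase, had 604, 672 and 535 CPM in the injured libraries, against 525, 540 and 611 CPM in the uninjured libraries. The groups overlapped, and the ratio was 1.08 (0.907 to 1.29), an interval that leaves out a 1.5-fold difference in either direction.

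The other enolase gene, Eno1 (ENSMUSG00000063524), was listed with 0 counts in all 6 libraries, which allows up to 4.73 CPM in the injured group, against 8.60 CPM in the uninjured group, at a limit of 3 counts. That limit holds for counts assigned to this identifier. The RefSeq gene table lists a further protein-coding copy of Eno1, and estimated counts of near-identical genes are uncertain, so no level of enolase 1 RNA is given. The same table lists pseudogenes of Gapdh, Pgk1 and Ldha, to which the same uncertainty applies. Pkm (ENSMUSG00000032294), pyruvate kinase of muscle and most other tissues, had only 6, 9 and 1 counts in the injured libraries (28.3, 42.6 and 4.73 CPM), against 6, 3 and 9 counts in the uninjured libraries (51.6, 25.7 and 77.5 CPM). The groups overlapped widely, and its injured libraries disagreed most of all 9 enzymes. Its ratio of 0.489 had an interval of 0.233 to 1.02, and it was 0.321 without the second injured library and 0.687 without the third injured library.

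The ratios of both lactate dehydrogenase genes were nearly equal. Ldha (ENSMUSG00000063229), the subunit that prevails in muscle, had 85.0, 161 and 118 CPM in the injured libraries, against 86.0, 111 and 34.4 CPM in the uninjured libraries. The groups overlapped, and its ratio of 1.57 had an interval of 1.00 to 2.53, whose lower limit was barely above 1. With 1 library left out, that ratio ranged from 1.23, without the third uninjured library, which had 4 counts, to 2.01, without the second uninjured library. Ldhb (ENSMUSG00000030246), the subunit that prevails in heart, had 274, 317 and 237 CPM in the injured libraries, against 172, 206 and 155 CPM in the uninjured libraries. Here the groups did not overlap, and the ratio was 1.55 (1.16 to 2.11). Within the pair, Ldhb held 69.4% of the injured counts (175 of 252, interval 63.4% to 75.1%) and 69.7% of the uninjured counts (62 of 89, 59.0% to 79.0%). The odds ratio of 0.990 had an interval of 0.560 to 1.72, so a change of isoform balance within these bounds was not detectable at this depth.

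**Figure D2:**
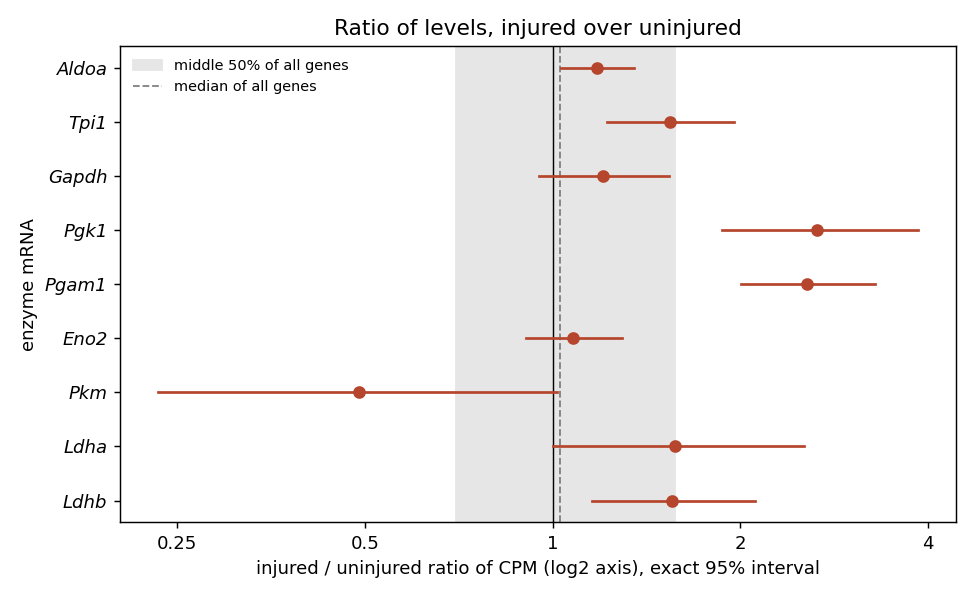
Ratio of injured to uninjured CPM (horizontal log2 axis) for the 9 enzymes with counts, from top to bottom in pathway order; points are ratios of the summed groups and lines exact 95% intervals of counting error. The shaded band spans the middle 50% of the 3455 genes that reached a mean of 50 CPM, 0.699 to 1.57, and the intervals of Pgk1 and Pgam1 lie wholly to its right.

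How the enzymes compared with the whole table at 1.5-fold depended on the scaling: by CPM of library totals a larger share of them than of all genes was higher, but not by TMM (edgeR's trimmed mean of M-values) or by totals without the 10 most abundant genes. The mean level reached 50 CPM for 8 enzymes, each of which also exceeded 50 CPM in both groups, whereas Pkm and Eno1 were below it. Of these 8, 5 were more than 1.5-fold higher (Tpi1, Pgk1, Pgam1, Ldha and Ldhb), where 27.6% of all 3455 genes were, and 2 were more than 2-fold higher, where 15.7% of all genes were. None of the 8 was below 1/1.5, as 22.6% of all genes were, or below 1/2, as 11.3% were. Only Pgk1 and Pgam1 remained above 1.5-fold when libraries were scaled by TMM or by totals without the 10 most abundant genes. That is 2 of 8 enzymes, where 24.9% of all genes were above 1.5-fold with TMM and 24.2% without the 10 most abundant genes, so the count of enzymes was near the background. Tpi1, Ldha and Ldhb then lay just under that bound, at 1.46, 1.49 and 1.48 with TMM. Ldha and Ldhb also fell short of 1.5-fold without the second injured or the third uninjured library. That left 3 enzymes above it, where 27.6% and 28.2% of all genes were. Tpi1 fell short without the third injured, the first uninjured or the second uninjured library. By CPM of library totals, intervals wholly above 1 were found for 6 of the 8, against 27.6% of all genes. Every injured library lay above every uninjured library for 6, against 28.9%. In the other direction, 0 of the 8 had an interval below 1, against 23.4% of all genes, and 0 had every injured library below every uninjured one, against 23.1%. These counts were not repeated with other scalings, and some members were at the margin. The intervals of Ldha and Aldoa began at 1.00 and 1.03, and their ratios of 1.57 and 1.18 became 1.49 and 1.12 with TMM. The Gapdh groups were apart by 335.9 against 335.5 CPM. The median log2 ratio was 0.62 over the 9 enzymes with counts and 0.63 over the 8, against 0.04 over all 3455 genes. With TMM it was 0.55 over the 9 enzymes and -0.03 over all genes. Without the third uninjured library the median over the 9 was 0.30, and without the second injured library it was 0.39.

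In edgeR's quasi-likelihood test of the reads, which takes its spread from libraries that were counted as 1 sample, 8 enzymes could be tested. At a Benjamini-Hochberg threshold of 0.05 over 3158 genes, Tpi1, Pgk1, Pgam1 and Ldhb were called higher, 4 of 8, where 24.9% of all genes were, and 0 were called lower, where 22.1% of all genes were. At an unadjusted p under 0.05, 0 of the 8 were lower, a threshold at which the share of all genes was not computed. DESeq2 and limma-voom also called 0 lower, where 6.95% and 23.1% of all genes tested were. Pkm, the enzyme with a ratio below 1, was not among the 8 because of the filter, so the main edgeR fit could not call it. It was tested in 3 other fits, with log2 fold changes of -1.41 to -0.968, and called in 0. Without the second uninjured library its unadjusted p was under 0.05. Pgk1 and Pgam1 were called higher in all 13 fits tried with edgeR, DESeq2 or limma-voom, with log2 fold changes of 1.12 to 1.62 and 1.19 to 1.39. Tpi1 was called in 10 fits and lost its call without the first or the second uninjured library and without a filter. Ldhb was called in 8 and lost its call without the first or the third uninjured library, without the second injured library, without a filter and with DESeq2. Without the first uninjured library, 2 enzymes of 8 were called higher in place of 4, near the 19.7% of all 4237 genes called higher in that fit. Aldoa was called in 3 fits, and Gapdh, Eno2 and Ldha in 0 of 13. These calls compare the reads of 2 samples and not the conditions.

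The make-up of the enzyme counts, which does not depend on how libraries are scaled, differed between the groups. Pgam1 held 15.6% of the enzyme counts in the injured group (interval 14.2% to 17.1%), against 8.54% in the uninjured group (6.84% to 10.5%). Its odds against the other enzymes were 1.97 times as high in the injured group (1.53 to 2.58). Pgk1 held 7.79% (6.75% to 8.93%) of the injured and 4.11% (2.94% to 5.58%) of the uninjured enzyme counts, an odds ratio of 1.97 (1.37 to 2.88). Shares were lower in the injured group for Aldoa, at 28.6% against 34.0%, for Eno2, at 15.9% against 20.6%, and for Pkm, at 0.663% against 1.90%. The odds ratios of these 3 were 0.780 (0.662 to 0.919), 0.728 (0.599 to 0.887) and 0.345 (0.164 to 0.720). That of Pkm rests on 16 injured and 18 uninjured counts. Its injured libraries, with 6, 9 and 1 counts, disagreed most of the enzymes, so its interval of counting error may be too narrow. For Tpi1, Gapdh, Ldha and Ldhb, the intervals of the odds ratio included 1. These 9 intervals are not adjusted for their number, and a share that grows for some enzymes must shrink for others.

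**Figure D3:**
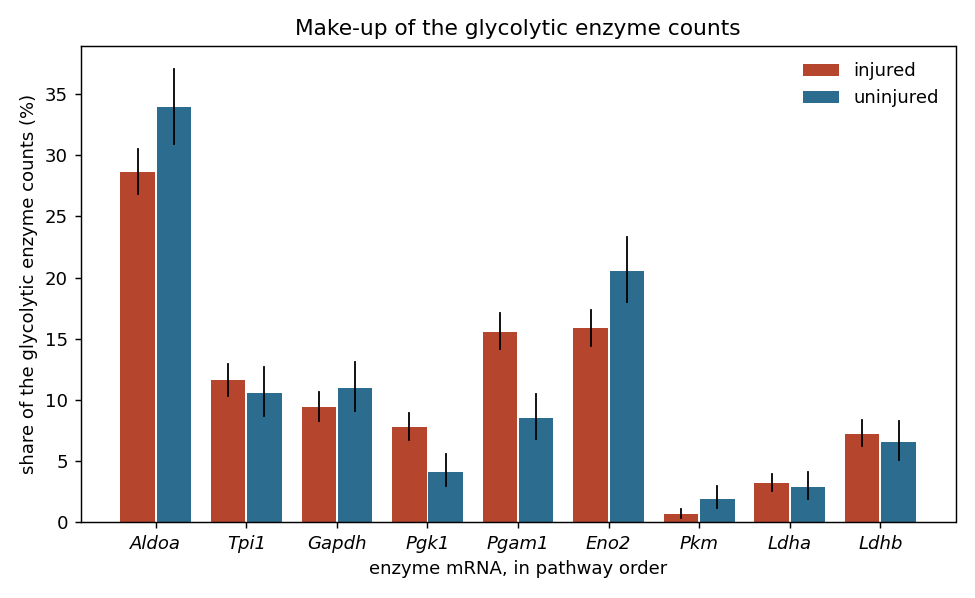
Share of all glycolytic enzyme counts (vertical axis, percent) held by each enzyme with a count (horizontal axis, pathway order) in the summed injured group (red, left) and the summed uninjured group (blue, right); black lines are exact 95% binomial intervals. Pgk1 and Pgam1 take larger shares in the injured group, 7.79% and 15.6% against 4.11% and 8.54%, and Aldoa, Eno2 and Pkm smaller ones. The shares of Pkm rest on 16 injured and 18 uninjured counts.

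Neighbouring steps of the pathway showed where the enzymes parted. Pgk1 had 0.825 counts per Gapdh count in the injured group, against 0.375 in the uninjured group, an odds ratio of 2.20 (interval 1.43 to 3.43). Between Pgk1 and Pgam1 the balance was near equal, with 2.00 Pgam1 counts per Pgk1 count in the injured group, against 2.08 in the uninjured group (odds ratio 0.963, 0.615 to 1.49). From Pgam1 to Eno2 it parted again: Eno2 had 1.02 counts per Pgam1 count in the injured group, against 2.41 in the uninjured group (0.423, 0.311 to 0.574). Of the 8 neighbouring pairs with counts, 2 had an interval above 1, 2 below 1 and 4 included 1. The remaining pairs whose intervals left out 1 were Pkm against Eno2 (0.453, 0.211 to 0.965) and Ldha against Pkm (3.18, 1.33 to 7.74), which both rest on the 16 injured and 18 uninjured counts of Pkm.

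Promoter sequences are shown because Pgk1 and Pgam1 had similar ratios, the highest of the 9. Those of Ldha, with a ratio of 1.57, and Eno2, which hardly differed, are shown for comparison. RefSeq sequences of build GRCm38.p6, a build other than the GRCm39 of the count table, were matched by symbol for 10 of 10 genes, in 16 windows of 250 bases before to 50 bases after an annotated start. Capitals mark each ACGTG on either strand (ACGTG or CACGT), a form of the core of hypoxia response elements. The form GCGTG was not searched for and is not marked. A CACGTG holds a match on each strand. The 250 bases before the start are printed 5′ to 3′ for Pgk1 (chrX:106186850-106187099, plus strand), Pgam1 (chr19:41911621-41911870, plus strand), Ldha (chr7:46845554-46845803, plus strand) and Eno2 (chr6:124769674-124769923, minus strand).
Pgk1: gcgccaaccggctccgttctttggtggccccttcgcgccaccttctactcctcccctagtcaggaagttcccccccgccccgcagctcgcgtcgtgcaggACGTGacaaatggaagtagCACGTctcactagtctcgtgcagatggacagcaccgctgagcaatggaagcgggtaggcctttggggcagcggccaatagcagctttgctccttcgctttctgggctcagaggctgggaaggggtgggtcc
Pgam1: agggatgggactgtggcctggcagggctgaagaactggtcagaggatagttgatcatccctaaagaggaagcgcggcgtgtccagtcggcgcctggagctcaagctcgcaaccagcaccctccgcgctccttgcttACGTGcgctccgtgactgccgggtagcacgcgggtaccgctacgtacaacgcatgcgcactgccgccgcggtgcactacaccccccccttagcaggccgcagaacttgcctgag
Ldha: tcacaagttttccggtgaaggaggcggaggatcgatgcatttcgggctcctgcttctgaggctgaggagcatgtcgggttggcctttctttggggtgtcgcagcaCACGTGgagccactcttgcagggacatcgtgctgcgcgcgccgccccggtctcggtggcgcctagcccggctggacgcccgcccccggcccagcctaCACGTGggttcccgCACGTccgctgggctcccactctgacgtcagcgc
Eno2: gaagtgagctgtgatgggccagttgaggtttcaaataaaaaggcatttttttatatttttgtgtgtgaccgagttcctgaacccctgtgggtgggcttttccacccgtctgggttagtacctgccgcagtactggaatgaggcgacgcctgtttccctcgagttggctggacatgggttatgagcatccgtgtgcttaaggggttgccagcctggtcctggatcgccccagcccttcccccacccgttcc

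Pgk1 had 2 matches in this stretch, Pgam1 had 1, Ldha had 5 and Eno2 had 0. Of the 10 enzymes, 6 (Aldoa, Gapdh, Pgk1, Pgam1, Pkm and Ldha) had a match in at least 1 of their windows, as did 21.8% of 27025 genes with a listed promoter. By window, 43.8% of the 16 enzyme windows and 19.6% of all 32851 windows held one. Neither comparison was limited to genes with counts or matched for base composition. Tpi1 and Ldhb, with ratios of about 1.5, had none. Matches were present for Gapdh, with a ratio of 1.21, for Aldoa, with 1.18, and for Pkm, with 0.489. A match describes these letters and is no evidence of a bound factor.

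The start of Ldhb is shown because it alone of the 10 genes had a TOP-like tract at an annotated start. The tract searched for was a C at the start followed by at least 4 pyrimidines, on the gene's strand. An annotated start of Aldoa had a run of 5 pyrimidines that did not begin with C and so was left out. The tract was found in 3.01% of all genes with a listed promoter. The 20 bases before and 20 after the annotated start are printed for Ldhb (chr6:142507938-142507977, minus strand) and for Ldha (chr7:46845784-46845823, plus strand), with the unbroken pyrimidine run from the start in capitals.
Ldhb: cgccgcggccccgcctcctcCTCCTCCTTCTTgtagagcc
Ldha: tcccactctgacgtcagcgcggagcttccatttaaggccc

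In Ldhb the run had 12 bases, and in Ldha, which begins with a purine, it had 0. The levels of both genes in the precipitate had nearly the same ratio, 1.55 (interval 1.16 to 2.11) for Ldhb and 1.57 (1.00 to 2.53) for Ldha. The odds ratio of the pair had an interval of 0.560 to 1.72. Whether the tract bears on these levels was not tested. Where transcripts start in these ganglia was not measured here.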

How the data were processed

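Per the labels' protocols, LARP1 was pulled down by antibody from lysate of fresh DRG, the RNA in the pellet was extracted with a column kit, and nanopore libraries were prepared by barcoded cDNA amplification. The authors deposited estimated counts for Ensembl gene identifiers without normalization. The submitters' processing notes name minimap2, Salmon and build GRCm39 (mm39); versions, settings and annotation were not given in the sources used here. All values were whole, so rounding changed none. Groups and replicate numbers came from the sample titles, which do not say whether libraries came from separate mice.

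Counts were summed per group and divided by the group's total. CPM have exact Poisson, ratios and shares exact Clopper-Pearson and odds ratios exact conditional 95% intervals (scipy 1.17.1). edgeR 4.0.16 (R 4.3.3) was fitted to the whole table with TMM factors and filterByExpr, and checked on simulated data; DESeq2 1.42.0, limma-voom (limma 3.58.1), other scalings and filters, a replicate block and leaving out each library were alternatives. All 10 enzymes are named, whatever their values. The members, lists and tests were chosen with earlier results of these data known. Markers of cell types and further genes of glucose use were not analysed here, since 0 identifiers could be paired with a symbol through the gene table, so the tissue label was not checked against markers; the names of the 10 enzymes came with their identifiers.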

Additional observations from a re-analysis of the deposited data

How the results depend on the processing

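Every ratio of the 9 enzymes with counts stayed inside its main interval under all 11 alternatives, 99 values in all. The alternatives used all or most of the same reads, so this is a weak check. With 1 library left out, the ratio ranged from 1.23 to 2.01 for Ldha and from 0.321 to 0.687 for Pkm, whose intervals are wide. Counts near the threshold moved: the 5 enzymes above 1.5-fold became 2 with TMM, with totals without the 10 most abundant genes and with a 2-fold threshold, where 24.9%, 24.2% and 15.7% of all genes were, and 3 to 5 with 1 library left out (3 without the second injured or the third uninjured library). With 1 library left out, 27.3% to 28.2% of all genes were above 1.5-fold (27.6% and 28.2% in the settings that gave 3). A 1.2-fold threshold, added once the values were known, gave 6 of the 9 enzymes with counts. The share of all genes above 1.2-fold was not computed, so that count has no background to be read against. The 1 enzyme below 1/1.5, Pkm, became 0 without the third injured library, so the range was 0 to 1. The median log2 ratio of 0.62 ranged from 0.30 to 0.64 with 1 library left out. The enzymes' share of counts was 0.410% in the injured and 0.313% in the uninjured group over totals without the 10 most abundant genes. Without Aldoa, also added once the values were known, the injured share was 0.272% and the uninjured share 0.179%. In both settings it was higher in the injured group. With 1 library left out, Ldhb held 66.5% to 71.5% of the injured and 65.7% to 73.1% of the uninjured pair. The 4 enzymes called higher by edgeR became 2 without the first uninjured library, near the 19.7% of all genes called higher there, and 2 to 4 over all libraries left out. Over those fits, 18.7% to 24.8% of all genes tested were called higher. With the replicate block, 4 were called higher and 0 lower, as without it, against 23.7% and 21.4% of all genes tested. Over 2976 genes, injured and uninjured libraries with the same number had deviations correlated at 0.0389, -0.0063 and -0.0506, so the numbers were not taken to pair the libraries. With a minimum mean of 10 CPM, 5 of 9 enzymes were above 1.5-fold and 1 below 1/1.5, against 34.9% and 26.7% of 8678 genes; with 200 CPM, 4 of 7 were above and 0 below, against 25.8% and 20.6% of 899 genes. Why the values moved was not tested. Depth limits Pkm, Ldha and Pgk1 most, with 18, 27 and 39 counts in the uninjured group.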
